A study of Mus musculus with 4 samples.

Results

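The 9 genes of arginine and polyamine metabolism described here, Arg1, Arg2, Nos2, Slc7a2, Odc1, Srm, Sms, Sat1 and Ass1, were taken by symbol from the 31053 genes of the feature table. Each symbol matched 1 row, and each gene had at least 1 unique molecular identifier (UMI, a tag that marks 1 captured mRNA molecule) in each of the 4 libraries. The cells came from hearts of CSF1R-EGFP reporter mice aged 12 to 16 weeks and were sorted as EGFP+ and Ly6G-. The baseline library pooled 3 hearts that had no surgery. The 3 infarct libraries held 1 heart each, taken 7 days after the left coronary artery was ligated, with the remote zone cut away before digestion. The reporter marks cells with Csf1r promoter activity and is not restricted to macrophages. The baseline hearts had no sham operation, so effects of surgery and of infarction cannot be told apart.

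Arginine enters macrophages through cationic amino acid transporters, of which Slc7a2 (CAT2) is the inducible form. It is then split by arginases into ornithine and urea, or oxidised by the inducible nitric oxide synthase Nos2 to nitric oxide and citrulline, and Ass1 begins the return of citrulline to arginine. Ornithine feeds the polyamines: Odc1 makes putrescine, Srm makes spermidine from it and Sms makes spermine, while Sat1 acetylates spermidine and spermine for export or breakdown. In macrophages, arginase is commonly taken as a mark of alternative activation and Nos2 of classical activation. Levels below are in CPM, the UMIs of a gene per 1000000 UMIs outside mitochondrial genes. The assay reads the 3′ end of each mRNA, so a count does not grow with transcript length.

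Between 10117 and 10782 cells per library were kept (those with 500 to 40000 UMIs and over 200 genes), with 70982109 UMIs in the baseline library and 88048742 to 97301304 in the infarct libraries. The median depth was 6398.5 UMIs per cell at baseline and 8469.5 to 8556.5 in the infarcts, and 26 to 34 cell barcodes were shared by any pair of libraries. Cells were placed in 15 types by ordered gates on marker genes, none of which is among the 9 genes. Mononuclear phagocytes, here all cells outside the B-cell, T or NK, endothelial, stromal and granulocyte gates, were 96.9% of baseline and 97.8% to 99.0% of infarct cells. The gates named Saa3 macrophage (Saa3, Marco, Slpi, Fn1, Prg4, Ltc4s) and reparative macrophage (Gpnmb, Spp1, Gdf15, Trem2, Fabp5, Syngr1) held 4 and 5 of their 6 markers among their 10 leading genes. The other-macrophage gate, which takes C1q-high cells left by the earlier gates, had none of its own markers there, so its name rests on the gate alone. The Saa3 gate held 36 cells (0.352%) at baseline and 1260 (12.1%), 94 (0.872%) and 661 (6.53%) in infarcts 1, 2 and 3. Its edge was not sharp, since 1778, 358 and 824 infarct cells lay at its cut on marker number or 1 marker below. These counts take in cells on both sides of the cut, so some of them are in the gate.

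In the infarcts, 6 of the 9 genes (Arg1, Arg2, Slc7a2, Odc1, Srm and Ass1) lay above the counting interval of the baseline library in every infarct library. Over all 21325 genes with a UMI this held for 13.4%, and over those at 1 CPM or more for 21.6%. Sat1 lay below the interval in every infarct library, which held for 38.6% of all genes and 52.8% of those at 1 CPM or more, and Nos2 and Sms did neither. The baseline is 1 library, so these differences have no test, and the interval (exact Poisson, 95%) covers counting error only. In sums over all cells, fewer cells of a type and less RNA per cell cannot be told apart. The median gene at 1 CPM or more had a log2 ratio of infarct to baseline of -0.25 on the CPM scale and 0.03 after TMM scaling, which sets libraries level by their typical gene. Relative to the median gene, the log2 ratios of the infarct mean to the baseline were 6.91 for Arg1, 3.02 for Slc7a2, 1.27 for Arg2, 1.10 for Ass1, 0.70 for Odc1, 0.53 for Srm, 0.20 for Sms, -0.05 for Sat1 and -0.28 for Nos2. With TMM scaling Sms turned from -0.06 to 0.23 and lay above the interval in all 3 infarcts, and Sat1 no longer lay below it.

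**Figure D1:**
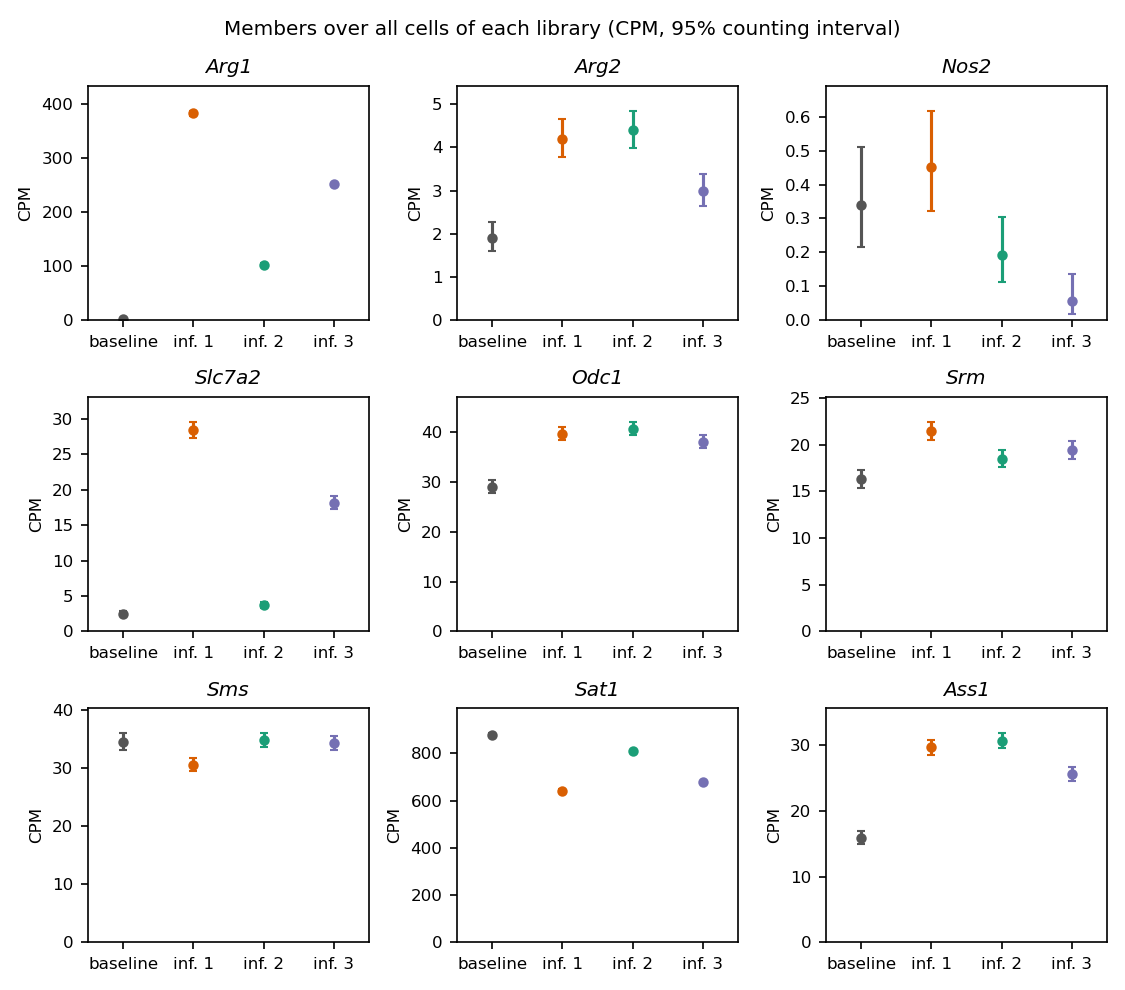
Level of each of the 9 genes in each library, in CPM of summed UMI counts on linear axes that start at 0, with 1 panel per gene and exact 95% Poisson intervals as bars. Arg1 separated from baseline most, at 103 to 382 CPM against 2.43, and Nos2 stayed under 0.5 CPM in every library.

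Uptake of arginine was followed through Slc7a2 (chromosome 8, 40862396 to 40922308, plus strand, GRCm38). It was at 2.47 CPM at baseline (interval 2.11 to 2.87) and at 28.4, 3.75 and 18.1 CPM in infarcts 1, 2 and 3, a mean of 16.8 ± 12.4 (SD, n = 3) and 6.78 times the baseline. All 3 infarcts were higher, but infarct 2 was 1.52 times the baseline and infarct 1 was 11.5 times, so the size of the difference varied more between hearts than for any other of the 9 genes but Nos2. This order of the hearts was also that of the share of cells in the Saa3 gate.

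Among the infarct cell types, Slc7a2 was concentrated in the Saa3 gate, at 196, 160 and 165 CPM (173.6 ± 19.2), where the baseline cells of the same gate had 34.7 (16 UMIs, interval 19.9 to 56.4). The sum of Saa3-gate cells exceeded the sum of all other cells of the same heart by a log2 fold change of 5.01 (SE 0.19, edgeR quasi-likelihood test with the heart as a block, Benjamini-Hochberg adjusted p = 5.2e-12). Saa3 and Marco were known to go with Arg1 in these cells when the gate was written. Slc7a2 goes closely with Arg1 (below), so this p-value is not independent of that choice. Of all Slc7a2 UMIs, 79.9%, 40.9% and 62.4% lay in this gate. The second type in the order, the B-cell gate, had 47.1, 3.22 and 25.1 CPM, so the Saa3 gate did not overlap it, whereas each further pair of neighbours in the order overlapped. Slc7a2 fell relative to all other cells in 8 of the 12 gates tested, from -1.55 (SE 0.31) in the resident gate to -4.23 (SE 0.27) in the dendritic gate, where it was at 1.63, 0.36 and 0.739 CPM. In these gates the cells compared with included the Saa3 gate.

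The arginases were represented by the cytosolic Arg1 (chromosome 10, 24915221 to 24927484, minus strand) and the mitochondrial Arg2 (chromosome 12, 79130777 to 79156301, plus strand). Arg1 had 164 UMIs in 43 cells at baseline, 2.43 CPM (interval 2.07 to 2.83), and 89 of these UMIs lay in 1 cell of the other-macrophage gate. In infarcts 1, 2 and 3 it had 33797, 9675 and 21412 UMIs, or 382, 103 and 251 CPM. The infarct mean of 245 ± 140 CPM was 101 times the baseline, with single hearts at 42.5 to 158 times, and 221 times once the 1 baseline cell was left out (1.11 CPM). Every infarct was far above the baseline, and the infarcts spread 3.71-fold among themselves.

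Few cells carried most of the Arg1 message. Cells with an Arg1 UMI were 0.420% of baseline and 25.4%, 8.88% and 16.4% of infarct cells, but cells with 10 or more Arg1 UMIs, numbering 903, 197 and 477 in the infarcts and 2 at baseline, held 86.5%, 84.0% and 87.0% of the infarct UMIs. The richest 1% of cells alone held 26.7%, 68.4% and 44.1%. Infarct 2, the heart with the lowest Arg1 level, thus had the most uneven spread. The richest infarct cells, at 201, 206 and 218 UMIs, were gated as Saa3 macrophage, ungated and proliferative in turn.

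**Figure D2:**
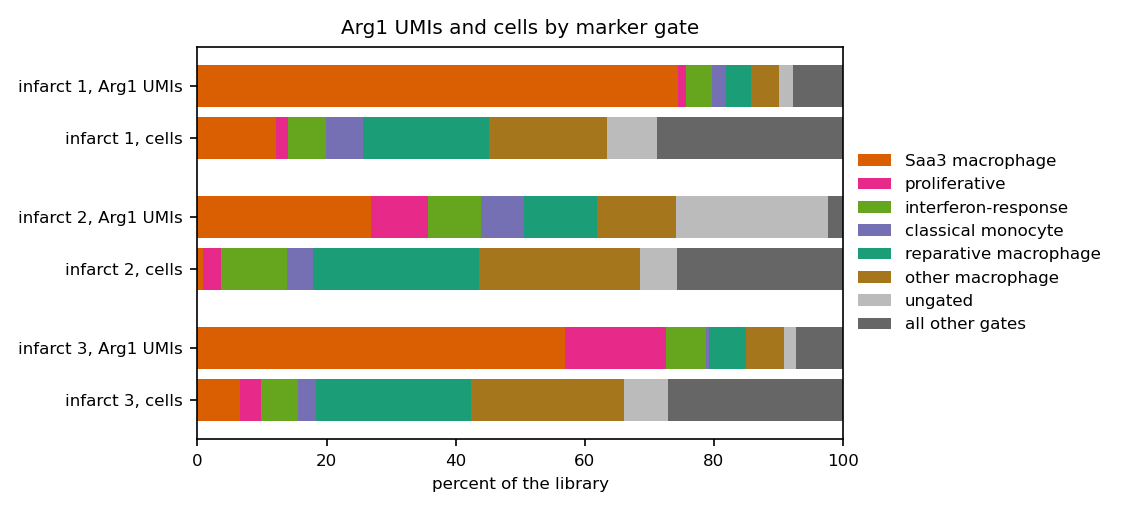
Share of each infarct library's Arg1 UMIs and of its cells held by each cell type, in percent of the library, as stacked bars. Of the Arg1 UMIs, the Saa3 gate held 74.4%, 26.9% and 56.9% in infarcts 1, 2 and 3, and the ungated cells of infarct 2 held 23.6%.

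By type, Arg1 was highest in the Saa3 gate of every infarct, at 2450, 2904 and 2080 CPM (2478 ± 413), against 8.68 at baseline (4 UMIs). Saa3 and Marco were already known to go with Arg1 in these cells when the gate was written, so this level is a description and was given no weight as a test. The level in this gate differed little between hearts, while the number of its cells did. Next came the proliferative gate at 153, 172 and 686 CPM and the resident gate at 390, 92.3 and 391, and from the proliferative gate down each neighbour overlapped the next. The reparative gate, which held 19.5% to 25.6% of infarct cells, had 60.9, 37.8 and 47.8 CPM. At the low end, the dendritic gate had 43.2, 1.80 and 29.9 CPM and the non-classical monocyte gate 83.0, 2.10 and 8.44. Ungated cells had 139, 457 and 96.9 CPM, and in infarct 2 they held nearly as much of the Arg1 message as the Saa3 gate. Summed over the 3 infarcts, the ungated cells were led by haemoglobin genes, with Ctsk and Mmp9 also among their 10 leading genes. Haemoglobin stood at 1190 CPM in the ungated cells at baseline and 3288 in infarct 3 but at 0.199 and 0.200 in infarcts 1 and 2, and its part in these values was not tested. Arg1 was above the baseline's interval in all 3 infarcts in 11 of the 13 types with enough cells in every library.

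Not every Arg1 UMI marks a cell that makes the transcript, because free RNA enters droplets. With every cell thinned to 2000 UMIs so that depth was equal, Arg1 was seen in 7 of 52 B cells in infarct 1 (13.5%), 0 of 31 in infarct 2 (a count of 0 allows up to 9.68%) and 10 of 92 in infarct 3 (10.9%). Median depths before thinning were 10811, 10126 and 9906 UMIs in B cells and 8559, 8484 and 8535.5 in phagocytes. In the Saa3 gate the thinned share was 75.9%, 77.2% and 76.3%, far above that of B cells in each heart. In the reparative gate it was 7.3%, 2.9% and 4.3%, in the MHC-II-high gate 6.6%, 1.0% and 3.2%, and in the other-macrophage gate 9.1%, 2.9% and 5.3%, all under the B-cell share or its limit in the same heart. Free RNA was therefore not told apart from expression by these shares, which in the reparative and other-macrophage gates lay above those of dendritic cells. Resident cells, at 27.3% and 18.6% in infarcts 1 and 3, exceeded the B-cell share there but not its limit in infarct 2, where the share was 5.2%. The proliferative share of 8.4%, 8.8% and 24.4% exceeded it in infarct 3 alone. The dendritic share was 2.33%, 0% and 2.02%, so the B-cell share was not a uniform floor. In non-classical monocytes the share was 4.94%, 0% (a count of 0 allows up to 2.88%) and 3.39%. The MHC-II-high share lay under that share or its limit in infarcts 2 and 3. In infarcts 1 and 3, 4 of the B cells each had 10 or more Arg1 UMIs before thinning and held 89.0% and 75.8% of that gate's Arg1. Of the B cells with Arg1, 3 of 7 in infarct 1 and 6 of 10 in infarct 3 were among the cells ranked as likely doublets. Among C1q-low B cells, Arg1 was seen in 3 of 21 in infarct 1 (14.3%), 0 of 9 in infarct 2 and 1 of 33 in infarct 3 (3.03%). This last share rests on 1 cell and lay under the reparative, MHC-II-high and other-macrophage shares of infarct 3.

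**Figure D3:**
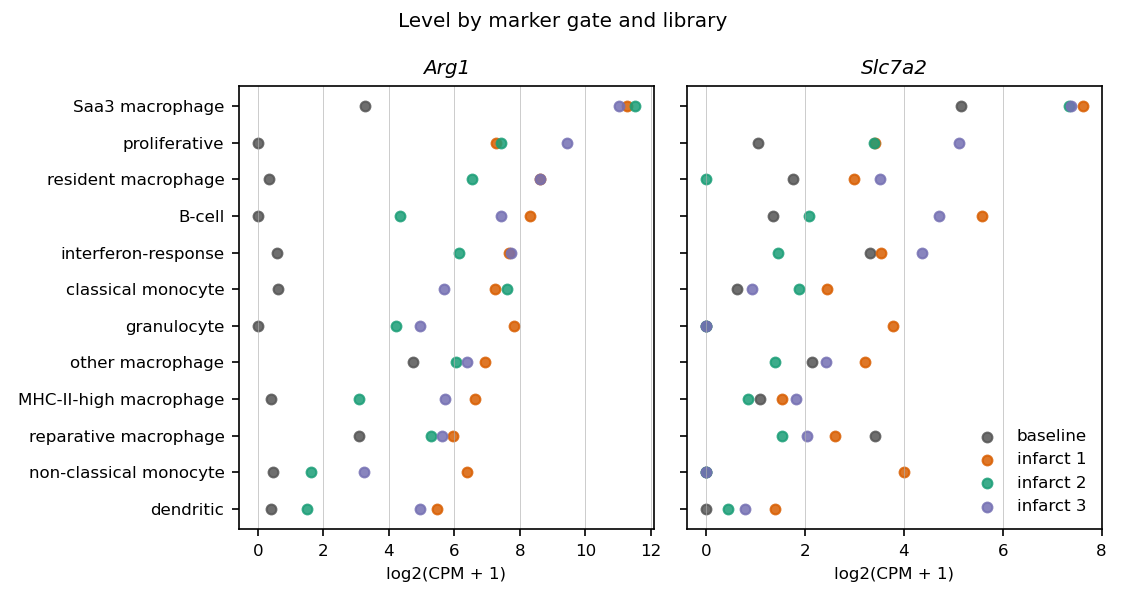
Arg1 and Slc7a2 levels as log2(CPM + 1) in 12 cell types, with 1 point per library. The 3 infarct points of the Saa3 gate, at 2080 to 2904 CPM for Arg1 and 160 to 196 CPM for Slc7a2, lie to the right of those of the other types drawn.

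Arg2 differed from Arg1 in both level and place. It was at 1.91 CPM at baseline (interval 1.59 to 2.27) and at 4.20, 4.39 and 2.99 CPM in the infarcts, a mean of 3.86 ± 0.76 and 2.02 times the baseline. Within phagocytes it was at 0.936 CPM at baseline (62 UMIs) and 4.12, 4.08 and 2.68 in the infarcts, because 67 of the 129 baseline UMIs lay in 72 granulocyte-gate cells. The infarcts all lay above the baseline on both counts.

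Of the types tested, the granulocyte gate had the highest Arg2 level. In the infarcts this gate had 33.3, 141 and 87.3 CPM, a log2 fold change of 4.31 over all other cells (SE 0.40, edgeR adjusted p = 1.0e-24), and at baseline 332 CPM (interval 257 to 421), above all 3 infarcts. The infarct values rest on 13, 32 and 29 of the 371, 412 and 255 Arg2 UMIs in infarcts 1, 2 and 3. Most infarct Arg2 message thus lay in other cells. The gate held 79, 62 and 101 infarct cells, and the sort excluded Ly6G+ cells, so it does not stand for the neutrophils of the heart. Classical monocytes were the other type in which Arg2 rose over other cells, at 11.5, 22.7 and 11.3 CPM (log2 fold change 2.14, SE 0.24, edgeR adjusted p = 3.3e-05) against 3.04 at baseline. Arg2 fell in the MHC-II-high (-1.58), other-macrophage (-1.31), proliferative (-2.10) and resident (-3.64) gates. In the Saa3 gate, where Arg1 peaked, Arg2 stood at 8.38, 7.80 and 3.24 CPM and did not pass the test.

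Nos2 (chromosome 11, 78920787 to 78960254, plus strand) was the rarest of the 9 genes. It had 23 UMIs at baseline, 0.340 CPM (interval 0.216 to 0.510), and 40, 18 and 5 UMIs in the infarcts, or 0.452, 0.192 and 0.0586 CPM. Infarcts 2 and 3 lay below the interval and infarct 1 inside it. At baseline, 17 of the 21 cells with a Nos2 UMI were in the endothelial gate. Within phagocytes the baseline had 4 Nos2 UMIs (0.0604 CPM, interval 0.0165 to 0.155) and the infarcts had 37, 14 and 4 (0.426, 0.150 and 0.0477 CPM), so infarct 1 lay above the interval and the others inside it.

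Infarct Nos2 was found most often in interferon-response cells, with 8 of 21 Nos2 cells in infarct 1, 7 of 14 in infarct 2 and 1 of 5 in infarct 3. A single cell held up to 13 of its UMIs. Of the cells with a Nos2 UMI, 12 of 21, 4 of 14 and 3 of 5 in infarcts 1, 2 and 3 also had an Arg1 UMI, as did 1 of 21 at baseline, before thinning. Over all cells, 25.4%, 8.88% and 16.4% had an Arg1 UMI in these infarcts and 0.420% at baseline. Cells were not matched for depth here, and whether Nos2 goes with Arg1 was not tested. Nos2 passed the filter on low counts only in the Saa3 and granulocyte gates and was called in neither. In the remaining gates it was too rare to test at this depth.

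Ass1 (chromosome 2, 31470207 to 31520672, plus strand), argininosuccinate synthase, was at 15.9 CPM at baseline (interval 15.0 to 16.9) and at 29.7, 30.7 and 25.6 in the infarcts. The mean of 28.7 ± 2.73 was 1.80 times the baseline, and the 3 hearts lay close together. Its place differed from that of Arg1. Dendritic cells had the highest level of the types tested, at 84.8, 109 and 92.7 CPM (log2 fold change 1.86, SE 0.09, edgeR adjusted p = 1.3e-10), against 53.2 at baseline. Ass1 also rose over other cells in classical monocytes (0.86), interferon-response cells (0.85) and proliferative cells (0.40). It fell in the other-macrophage (-1.06), reparative (-1.02) and resident (-2.56) gates. In the reparative gate it was at 15.5, 15.8 and 15.4 CPM against 57.9 at baseline (84 UMIs in 90 cells), and in the MHC-II-high gate at 28.2, 28.4 and 23.9 against 6.97. Of 13 types, Ass1 was above the baseline's interval in all 3 infarcts in 5 and below it in 1.

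The polyamine genes Odc1, Srm and Sms differed less from the baseline than Arg1, Slc7a2, Arg2 and Ass1 did, and each had its highest mean level of the types tested in dividing cells. Odc1 (chromosome 12, 17544794 to 17551505, plus strand), ornithine decarboxylase, was at 29.1 CPM at baseline (interval 27.8 to 30.4) and at 39.7, 40.8 and 38.1 in the infarcts, 1.36 times the baseline and with little spread (mean 39.5 ± 1.34). Srm (chromosome 4, 148591503 to 148594993, plus strand), spermidine synthase, was at 16.3 CPM (interval 15.4 to 17.3) and at 21.4, 18.5 and 19.4, 1.21 times. Sms (chromosome X, 157443855 to 157492287, minus strand), spermine synthase, was at 34.5 CPM (interval 33.1 to 36.0) and at 30.6, 34.8 and 34.3, 0.962 times, with infarct 1 below the interval and the others inside it.

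In the proliferative gate, which held 192, 296 and 328 infarct cells, all 3 rose over the other cells of the same heart. Sms was at 63.1, 87.9 and 68.8 CPM (log2 fold change 1.19, SE 0.10, edgeR adjusted p = 1.2e-05), Srm at 42.1, 51.0 and 33.7 (1.14, SE 0.14, adjusted p = 0.00016 by edgeR) and Odc1 at 67.8, 68.4 and 58.2 (0.71, SE 0.08, adjusted p = 0.00014 by edgeR). The call for Odc1 was lost when every cell was thinned to 2000 UMIs (0.58), and median depth in this gate was 14763 to 15922 UMIs against 8469.5 to 8556.5 over all infarct cells. The baseline cells of the gate had 66.4 CPM of Sms, 23.9 of Srm and 44.1 of Odc1, so Srm and Odc1 were higher in the infarcts within the gate as well and Sms was above the interval in 1 of 3. In the Saa3 gate Srm rose (0.82, SE 0.17, edgeR adjusted p = 0.0011; 24.0, 47.9 and 43.4 CPM), a call lost without infarct 3 (0.56) and with cells thinned (0.49), while Odc1, at 40.7, 65.7 and 45.4 CPM, and Sms, at 26.4, 47.9 and 33.6, did not pass the test there. Odc1 fell in the classical (-0.65) and non-classical (-1.83) monocyte gates. Sms fell in the classical monocyte (-0.65), resident (-0.63) and MHC-II-high (-0.22) gates, and Srm in the other-macrophage (-0.46) and MHC-II-high (-0.40) gates.

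Because Odc1 and Sms rose together in dividing cells, the stretches just upstream of both genes are shown from the RefSeq promoter table (GRCm38.p6), which matched Ass1, Odc1, Sat1 and Sms of the 9 genes. Capitals mark every match, on either strand, to GGGCGG (the GC box bound by Sp1-type factors) and to CACGTG (the E-box bound by Myc and other factors). Odc1 is given for chr12:17544623-17544793, plus strand, 171 bases, and Sms for chrX:157492288-157492537, minus strand, 250 bases, each read 5′ to 3′ toward the gene.
Odc1: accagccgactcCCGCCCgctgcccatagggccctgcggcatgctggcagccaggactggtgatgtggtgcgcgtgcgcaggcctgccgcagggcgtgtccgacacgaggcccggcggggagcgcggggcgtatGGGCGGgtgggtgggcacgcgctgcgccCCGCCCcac
Sms: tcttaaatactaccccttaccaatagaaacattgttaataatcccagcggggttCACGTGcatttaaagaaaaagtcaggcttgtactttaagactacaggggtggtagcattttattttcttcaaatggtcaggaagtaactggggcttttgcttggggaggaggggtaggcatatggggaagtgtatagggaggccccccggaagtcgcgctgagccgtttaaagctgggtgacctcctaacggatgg
The Odc1 stretch held 3 matches to GGGCGG and none to CACGTG, and the Sms stretch held 1 match to CACGTG and none to GGGCGG, so the pair shared neither motif in these windows. Among the 32851 promoters of the table, GGGCGG was present in 19.6% of stretches as long as that of Odc1, and CACGTG in 6.02% of stretches as long as that of Sms. A match describes the letters and is no evidence of binding.

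Sat1 (chromosome X, 155213132 to 155216449, minus strand), the spermidine and spermine acetyltransferase, was by far the most abundant of the 9 genes. It was at 878 CPM at baseline (interval 871 to 885) and at 642, 807 and 678 in the infarcts, a mean of 709 ± 87.1 and 0.808 times the baseline, and had a UMI in 87.0% of baseline and 89.3% to 93.6% of infarct cells. Non-classical monocytes had the highest level of all types tested, at 2023, 2452 and 2240 CPM (log2 fold change 1.60, SE 0.10, edgeR adjusted p = 2.8e-53) and 2432 at baseline. That gate held 10.5% of baseline and 0.837% to 1.20% of infarct cells, so the libraries differed in the share of the type richest in Sat1. The part of this share in the lower infarct level was not tested. Within types, Sat1 lay below the baseline's interval in all 3 infarcts in 4 of 13 and above it in 1, the reparative gate. Over the other cells of the infarcts, Sat1 also rose slightly in the interferon-response (0.33), reparative (0.28) and MHC-II-high (0.16) gates, the last with 2 of 3 hearts higher. It fell in the dendritic (-0.95), proliferative (-0.66) and Saa3 (-0.58) gates, so the Saa3 gate, highest in Arg1 and Slc7a2, had one of the lower Sat1 levels, at 568, 477 and 468 CPM.

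Over all 12 gates tested, 98 pairs of gene and type passed the filter on low counts and 49 were called at an adjusted p under 0.01, or 48 of 97 without Arg1 in the Saa3 gate. Set against all genes tested in the same gate, 6 of 8 of the genes were called in the MHC-II-high gate (20.6% of all genes), 6 of 8 in the proliferative (25.5%), 5 of 8 in the classical monocyte (28.8%) and 5 of 8 in the other-macrophage gate (24.8%). In the Saa3 gate 4 of 9 were called (28.5% of all genes), and 4 of 8 each in the dendritic (36.3%), non-classical monocyte (22.5%), reparative (24.9%) and resident (12.8%) gates. The count was 3 of 9 in the granulocyte gate (12.2%), 3 of 8 in the interferon-response gate (12.0%) and 1 of 8 in the B-cell gate (6.93%). The 9 genes were abundant enough to pass the filter in most gates, and no test of the group as such was made. Without the heart as a block, 25 of the 97 pairs were called, and 16 of the 48 calls did not survive leaving out 1 infarct or another.

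**Figure D4:**
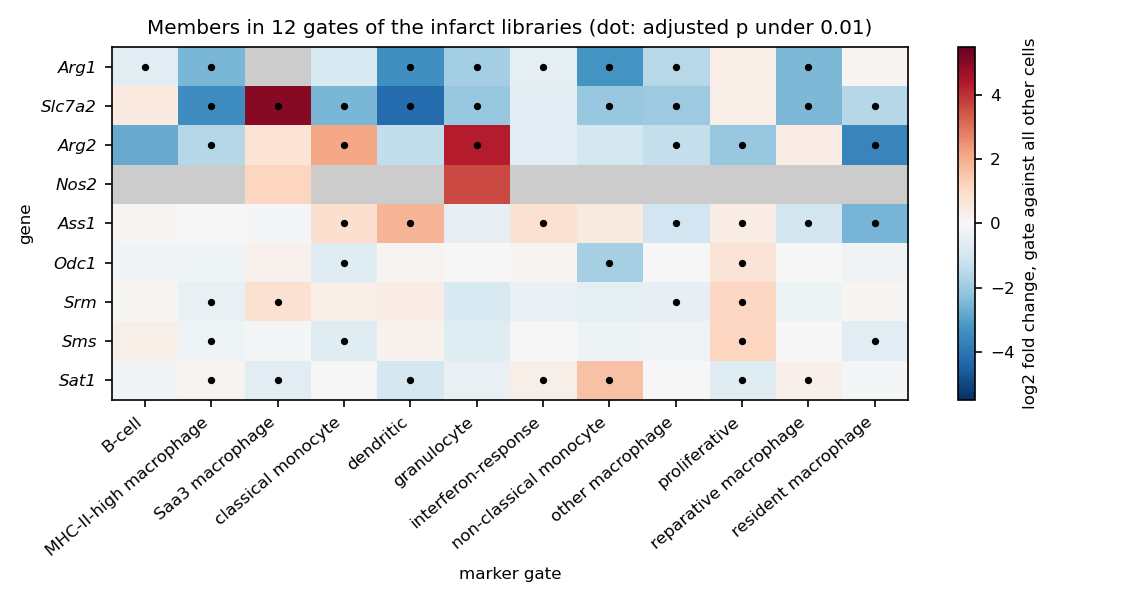
Log2 fold change of each gene in each tested type against all other cells of the same infarct hearts, with a dot on pairs at an adjusted p under 0.01 and grey where a pair was not tested or, for Arg1 in the Saa3 gate, is given only as a description. Among called pairs, Slc7a2 had its highest value in the Saa3 gate (5.01), Arg2 in granulocytes (4.31), Ass1 in dendritic cells (1.86), Sat1 in non-classical monocytes (1.60) and Odc1, Srm and Sms in proliferative cells, and Nos2 in granulocytes (3.62) was not called.

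Cells with Arg1 were then compared with phagocytes of the same heart without it, after thinning each cell to 2000 UMIs. There were 1582, 421 and 905 phagocytes with an Arg1 UMI (16.8%, 4.20% and 10.2%) and 7821, 9594 and 7971 without. Of the 7 other genes tested, 2 were called, where 14.9% of all 11261 genes were. Slc7a2 rose by a log2 fold change of 5.35 (SE 0.14, edgeR adjusted p = 2.8e-10), with 188, 70.5 and 134 CPM in cells with Arg1 and 4.72, 1.19 and 3.18 in cells without. Its transcript was seen in 16.0%, 6.89% and 15.0% of cells with Arg1 and 0.678%, 0.208% and 0.527% of cells without. Conversely, 82.7%, 59.2% and 76.4% of phagocytes with Slc7a2 also had Arg1. Cells with and without Arg1 did not overlap across the 3 hearts in level or share.

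Sat1 fell (-0.48, SE 0.10, edgeR adjusted p = 0.0030), at 590, 610 and 512 CPM in cells with Arg1 and 669, 840 and 721 in cells without. The call for Sat1 was lost without infarct 3 (-0.41) and without the heart as a block (-0.49). Arg2 had a log2 fold change of 1.23 (edgeR adjusted p = 0.031) and Srm of 0.58 (edgeR adjusted p = 0.055), both higher in all 3 hearts but not under the threshold of 0.01. Arg2 passed the threshold without infarct 3 (1.64), and Srm passed it without infarct 1 (0.95) and with cells not thinned (0.77). Odc1 (0.22), Sms (0.25) and Ass1 (0.22) were not called, and Nos2 was too rare to test. At baseline, 12 thinned phagocytes had Arg1 and 8742 did not, and 1 of the 12 had Slc7a2.

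**Figure D5:**
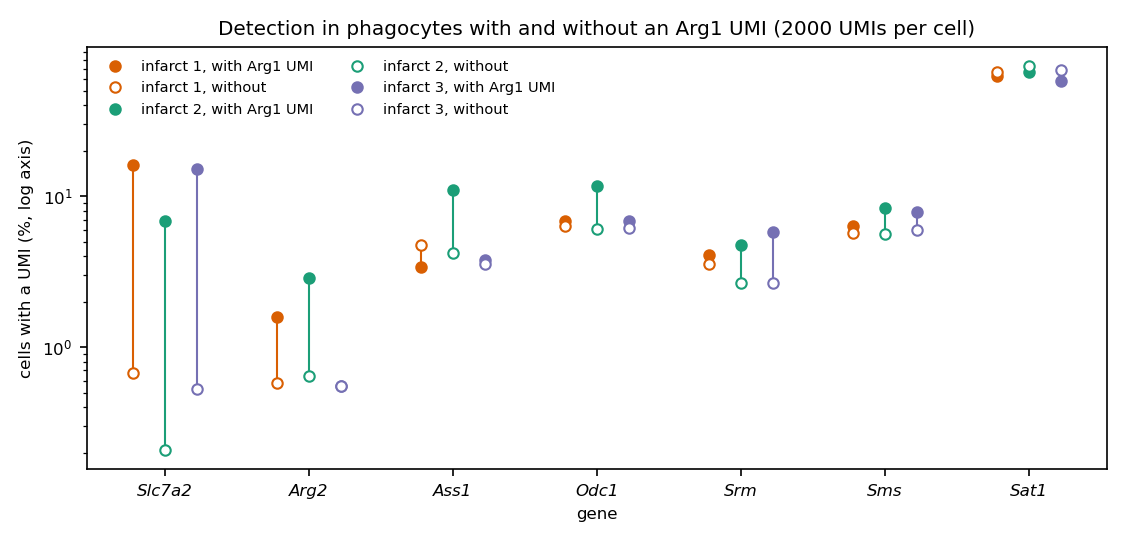
Share of phagocytes with a UMI of each gene, in percent on a log axis, among cells with and without Arg1 in each infarct after thinning to 2000 UMIs. Slc7a2 is the gene with the widest gap, at 6.89% to 16.0% with Arg1 and 0.208% to 0.678% without.

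Most cells with both Arg1 and Slc7a2 were in the Saa3 gate, with 221 of 253 in infarct 1 (87.4%), 19 of 29 in infarct 2 (65.5%) and 96 of 136 in infarct 3 (70.6%). The association with Slc7a2 was also measured with that gate left out, where it was 4.43 (SE 0.25, edgeR adjusted p = 1.3e-07) with 5.54% of all genes called. Within the Saa3 gate alone it was 2.34 (SE 0.26, edgeR adjusted p = 1.3e-07; 1.57% of all genes), and within the reparative gate alone 2.99 (SE 0.68, edgeR adjusted p = 0.00081; 1.78% of all genes). Sat1 fell with the Saa3 gate left out (-0.41, adjusted p = 0.0076 by edgeR) and within the reparative gate (-0.49, adjusted p = 4.9e-05 by edgeR), and had -0.22 within the Saa3 gate, which did not pass the test.

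Cells rich in Arg1 were not all alike in Slc7a2. Among cells with 10 or more Arg1 UMIs, Slc7a2 was seen in 40.1%, 25.4% and 45.3%, and 75.5%, 26.9% and 61.8% of them were in the Saa3 gate. Such cells had 256, 212 and 216 CPM of Slc7a2 in the Saa3 gate and 141, 15.4 and 90.5 in the other-macrophage gate. They had 63.7, 3.08 and 33.4 in the reparative gate and 6.70, 23.9 and 70.6 among ungated cells. In the classical monocyte gate they had 12.1, 12.1 and 0. The reparative value of infarct 2 and the ungated value of infarct 1 rest on 1 Slc7a2 UMI each. The classical monocyte values of infarcts 1 and 2 rest on 2 Slc7a2 UMIs each, and the 0 of infarct 3 on 2 cells. Arg1 itself was at 2513 CPM or more in the Saa3, other-macrophage and ungated groups. It was at 2446 to 3495 in the classical monocyte groups and at 1589 to 2128 in the reparative groups. A comparison added after these values were seen set thinned cells with Arg1 in the Saa3 gate against those outside it. Slc7a2 was higher inside, by 2.27 (SE 0.17, edgeR adjusted p = 1.1e-20), and was the only 1 of the 6 genes tested that was called, with 9.58% of all genes called. Because the Slc7a2 values above prompted this comparison, its p-value is a description and was given no weight as a test.

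Of 46 further genes of arginine and polyamine metabolism, 38 were tested by Arg1 detection and 8 were called (21.1%, against 14.9% of all genes). Of these 3 rose, Slc7a1 (0.93), which is the constitutive arginine transporter, Gch1 (0.69), which starts synthesis of the cofactor of nitric oxide synthases, and Azin1 (0.66), which frees ornithine decarboxylase from antizyme. The 5 that fell were Nostrin (-1.66), Ckb (-1.04), Paox (-0.87), Nosip (-0.68) and Slc3a2 (-0.63), of which Paox, a polyamine oxidase, acts on the products of Sat1. The list's median was -0.09 and that of all genes tested -0.03. Without infarct 1, 5 of the list were called in place of 8, and with the Saa3 gate left out 2 of 38 were, against 5.54% of all genes. In the Saa3 gate 43.9% of the 41 tested were called, against 28.5% of all genes. There 6 rose, led by the mitochondrial ornithine carrier Slc25a15 (1.29) and Slc7a1 (1.03), and 12 fell, led by Ddah1 (-3.29), which degrades an inhibitor of nitric oxide synthases. In the proliferative gate 39.0% of 41 were called, against 25.5% of all genes, of which 8 rose, among them Slc7a1 (1.29), Oat (0.73), Azin1 (0.67) and Eif5a (0.67), the protein modified with spermidine, and 8 fell. An excess was also seen in the dendritic gate (51.2% against 36.3%) and the non-classical monocyte gate (43.9% against 22.5%). In the MHC-II-high (17.1% against 20.6%), reparative (24.4% against 24.9%), granulocyte (9.76% against 12.2%) and resident (9.76% against 12.8%) gates the share was lower.

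Markers of activation moved in both directions with Arg1 detection, where 14.9% of all genes were called. Of 12 genes of alternative activation, Ccl24 (4.33), Retnla (2.87), Cd163 (2.87) and Tgm2 (1.28) rose, Retnla with 2 of 3 hearts higher. From the same list Ccl17 (-3.27), Ccl22 (-1.93), Mgl2 (-1.87) and Clec10a (-0.74) fell, and the list median was 0.10. Of 12 genes of classical activation, Il6 (3.61) and Il1a (1.85) rose and Cxcl10 (-1.32), Il1b (-1.01), Tnf (-0.92), Cd86 (-0.79) and Socs3 (-0.54) fell, with a median of -0.67. The hypoxia and glycolysis list moved in 1 direction. Of its 13 tested genes 11 rose, led by Egln3 (2.56), Vegfa (2.12), Ero1l (1.82) and Pgk1 (1.78), and none fell, with a median of 1.29 against -0.03 for all genes. With the Saa3 gate left out 10 of 13 rose (5.54% of all genes were called), and within the reparative gate 5 of 12 (1.78% of all genes). Within the Saa3 gate alone edgeR called 0 of 12 (1.57% of all genes), with 8 at an unadjusted p under 0.05. By type, 11 of 14 rose over other cells in the Saa3 gate (28.5% of all genes called) and none fell. In the classical monocyte gate 10 of 14 rose (28.8% of all genes) and none fell, though Arg1 was at -0.82 there and not called. More of the list fell than rose in the MHC-II-high, dendritic, resident, other-macrophage, proliferative, reparative, B-cell and non-classical monocyte gates.

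The genes that rose most in cells with Arg1 were Marco (5.96), Saa3 (5.72), Slc7a2 (5.35), Prg4 (5.33), Alox15 (5.31), Selp (5.17), Wfdc21 (5.16), Car6 (5.11), Serpinb2 (4.66) and Jam2 (4.63), of which Marco, Saa3 and Prg4 are markers of the Saa3 gate. Those that fell most were Klrd1 (-3.61), Hpgd (-2.41), Rapsn (-2.29), Cadm1 (-2.28) and Cd209a (-2.20), of which Klrd1 and Cd209a are dendritic markers. Over 36 sums of type and infarct heart, the 5 genes of 8462 whose log2(CPM + 1) went most closely with that of Arg1 were Ednrb (Pearson r = 0.891), Fn1 (0.873), Slc7a2 (0.872), Dok2 (0.852) and Ccl24 (0.844). Fn1 is a marker of the Saa3 gate, and sums of 1 heart share library and depth. The same measure was 0.520 for Srm, 0.425 for Odc1, 0.174 for Sms, 0.0629 for Arg2, -0.190 for Ass1 and -0.399 for Sat1. Summed markers of other cells were lower in phagocytes with Arg1 for B cells, at 14.3 to 15.8 CPM against 32.0 to 41.9, and higher for granulocytes, at 68.0 to 86.5 against 57.4 to 70.1 with 4 of 7 markers higher in each heart. T or NK markers were at or near 0. The part of granulocyte RNA in these results was not tested.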

How the data were processed

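Droplet-based (10x Genomics 3′) single-cell libraries were analysed from the UMI counts that the authors deposited, 1 gene-by-cell matrix per library, made by the authors with Cell Ranger on mm10 (version 3.0.1 in the submitters' processing notes, a later one in the file headers). Values had not been normalised. Here, a cell entered the analysis with at least 500 and at most 40000 UMIs and more than 200 genes detected, mitochondrial genes were left out of sums, and cells were gated in order on marker genes. No column was left unused. Cell Ranger keeps reads that map to 1 gene, so reads shared with processed gene copies would be lost, which was not examined.

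Counts were summed per library and type, and tested within the 3 infarct hearts with edgeR 4.0.16 (R 4.3.3; TMM, filterByExpr, quasi-likelihood test, heart as a block because both sums come from the same heart), with Benjamini-Hochberg adjustment over all genes tested and a threshold of 0.01. Types needed 20 cells in each infarct. Infarct and baseline were compared without a test. Intervals are exact Poisson at 95% and cover counting error only, and a count of 0 was taken to allow 3. Named genes were the 9 genes, called pathway genes, and the 10 highest and 5 lowest called genes by Arg1 detection at 20 CPM or more, changed alike in all 3 hearts, mitochondrial and sex-linked genes left out. The 9 genes, gates and lists were chosen with earlier results of these data known, and added comparisons were chosen after seeing the data. Doublets were kept. Removing those ranked highest by Scrublet (scanpy 1.11.5), 8.10% to 8.63% of cells, was an alternative, since its automatic cut marked 0% to 0.00988% of infarct cells. DESeq2 1.42.0, other normalisation and filters, thinning, stricter cell filters, doubled gate cuts and leaving out each infarct were further alternatives. On simulated sums with known changes, 93% of 4-fold and 71% of 2-fold changes were recovered in the Saa3 gate (13178 genes), and 94% and 73% by Arg1 detection (11261 genes). The simulation changed 200 genes and gave every gene the same dispersion, so these shares need not hold for rare genes such as Nos2. Gene positions are from GENCODE on GRCm38.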

Additional observations from a re-analysis of the deposited data

Results flagged for a closer look

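Within cell types, 6 of the genes moved in opposite directions from the baseline in different types, with all 3 infarct libraries outside the baseline's counting interval each time. These differences between types were not tested, since the baseline is 1 library. Arg2 was higher in the infarcts in classical monocytes (log2 ratio 2.31; 17 baseline UMIs) and lower in granulocytes (-1.93; 67 baseline UMIs). Slc7a2 was higher in the Saa3 gate (2.32; 16 baseline UMIs) and lower in the reparative gate (-1.52; 14 baseline UMIs). Odc1 was higher in proliferative cells (0.56) and lower in the reparative gate (-0.56), as was Srm (0.82 and -1.06) and Ass1 (2.00 and -1.90). Sat1 was higher in the reparative gate (0.37) and lower in granulocytes (-0.72). The reparative gate, which enters 5 of these 6 pairs, held 90 cells at baseline.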

How the results depend on the processing

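Of the 48 called pairs of gene and type (Arg1 in the Saa3 gate left out), all 48 kept their direction in every alternative run and 21 kept their call in all of them. Fitted with no replicate block, 25 pairs were called, and with 1 infarct left out 39 to 50. The calls lost without infarct 1 were Slc7a2 in the resident (-1.18) and granulocyte (-12.1) gates, Arg1 in the interferon-response gate (-0.31) and Ass1 in the proliferative gate (0.38). Those lost without infarct 2 were Sat1 (0.13), Sms (-0.21) and Srm (-0.39) in the MHC-II-high gate, Sms in the classical monocyte gate (-0.45), Arg1 (-1.75) and Slc7a2 (-2.00) in granulocytes, Arg1 in the interferon-response gate (-0.48), Arg2 (-1.67) and Ass1 (0.40) in the proliferative gate, and Arg2 (-3.02) and Sms (-0.59) in the resident gate. Those lost without infarct 3 were Sat1 (0.18), Sms (-0.19) and Srm (-0.29) in the MHC-II-high gate, Srm in the Saa3 gate (0.56), Slc7a2 in the granulocyte (-1.36), non-classical monocyte (-1.26) and reparative (-2.17) gates, Ass1 in the proliferative gate (0.41), Sat1 in the reparative gate (0.24), and Arg2 (-3.07) and Sms (-0.51) in the resident gate. By Arg1 detection, 2 genes were called, against 4 with no filter on low counts (Arg2 and Srm added), 1 with no replicate block, 1 in the Saa3 gate alone, 0 of 2 tested in the classical monocyte gate alone (edgeR; 1 at an unadjusted p under 0.05), and 2 to 3 with 1 infarct left out. Of the pathway list, 8 were called, against 5 by the DESeq2 Wald test, 4 with no replicate block, 5 with cells thinned to 1000 UMIs, 2 with the Saa3 gate left out and 5 to 8 with 1 infarct left out (5 without infarct 1). By edgeR within the Saa3, classical monocyte or reparative gate alone 0 were called, with 1, 0 and 2 at an unadjusted p under 0.05. In infarct and baseline, 6 genes lay above in every setting with 1 infarct left out (6 to 6), and 5 to 7 under the others. Below baseline, 1 gene lay there, 0 with TMM scaling, and 1 to 2 with 1 infarct left out (Nos2 added without infarct 1). Sms reversed to 0.23 with TMM scaling. Within phagocytes only, the log2 ratio of Arg2 moved from 1.02 to 1.95 and that of Nos2 from -0.54 to 1.78. For Slc7a2 in cells with Arg1 in and outside the Saa3 gate, the range with 1 infarct left out was 2.10 to 2.71, and the value with no replicate block was 2.33. No paired analysis was possible because the baseline is 1 library for infarct and baseline. Depth limited Nos2, with 5 to 40 UMIs per library.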
